A study of Rattus norvegicus with 6 samples.

Results

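Zinc transporters and metallothioneins were followed in pancreatic islets of ageing rats. The group comprised 10 genes: *Slc30a1*, *Slc30a4*, *Slc30a5*, *Slc30a7* and *Slc30a8* of the ZnT family, *Slc39a1*, *Slc39a7* and *Slc39a14* of the ZIP family, and the metallothioneins *Mt1a* and *Mt3*. They were located through the RefSeq transcript named for each probe, and 9 of the 10 had a probe, out of 13903 genes with a matched probe; none was matched for *Slc30a7*. Each of the 9 genes had 1 probe, and 8 of them exceeded background clearly on 3 or more of the 6 arrays and were tested. Islets of male Wistar rats, prepared with collagenase, were profiled at 3 months and at 12 months, with total RNA on 1-colour arrays and 3 arrays per age. The methods of the study name separate rats of each age as the source of the RNA. The animals carried no transgene and received no treatment according to the labels, so age was the only labelled difference. An islet preparation of this kind is a mixture of endocrine and other pancreatic cells.

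Zinc is concentrated in the secretory granules of beta cells, where it crystallises with insulin and is released together with it. Members of the ZnT family (*Slc30a*) lower cytosolic zinc by exporting it from the cell or loading it into organelles and vesicles, whereas members of the ZIP family (*Slc39a*) move zinc into the cytosol. Metallothioneins are small cysteine-rich proteins that bind zinc and copper. Some of their genes are classic targets of MTF-1, a zinc-sensing transcription factor that binds metal response elements in the promoters.

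The metallothionein promoters are shown because some metallothionein genes are textbook targets of that factor. The sequences are from RefSeq (GRCr8), 5′ to 3′ on the strand of the gene, and cover the 250 bases before the annotated start. The core of the metal response element was searched as TGCACNC and TGCGCNC on both strands, overlapping matches being merged into 1 stretch, and the stretches are in capitals. The *Mt1a* promoter lies at chr19:10832976-10833225 (minus strand) and that of *Mt3* at chr19:10856081-10856330 (minus strand).
Mt1a: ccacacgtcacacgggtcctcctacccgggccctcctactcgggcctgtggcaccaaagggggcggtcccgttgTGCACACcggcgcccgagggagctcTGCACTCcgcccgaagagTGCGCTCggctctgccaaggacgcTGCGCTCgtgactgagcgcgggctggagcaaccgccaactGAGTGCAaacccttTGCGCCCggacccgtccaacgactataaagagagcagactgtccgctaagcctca
Mt3: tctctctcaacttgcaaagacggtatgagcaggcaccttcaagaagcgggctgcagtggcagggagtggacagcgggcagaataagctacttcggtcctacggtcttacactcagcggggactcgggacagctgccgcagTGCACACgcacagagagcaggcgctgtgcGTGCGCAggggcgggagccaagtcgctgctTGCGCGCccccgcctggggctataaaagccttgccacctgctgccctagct

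The *Mt1a* promoter held 6 stretches, which began 176, 151, 133, 109, 69 and 55 bases before the start. The *Mt3* promoter held 3, beginning 110, 81 and 51 bases before the start. At least 6 stretches were present in 0.0239% of the 33469 rat promoters of the same length, at least 3 in 0.732%, at least 2 in 3.99% and at least 1 in 20.6%. Promoters were matched for 7 of the 10 genes, and all 7 held at least 1 stretch: *Slc39a7* had 3 in each of its entries, *Slc30a1* and *Slc30a4* had 2, and *Slc30a5* and *Slc39a1* had 1. *Slc30a7*, *Slc30a8* and *Slc39a14* had no entry. These matches describe the letters in the window; binding was not measured.

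The arrays were read in 2 scans, of which 0 held both ages, and effects of scan and of age therefore cannot be told apart. Between 59.5% and 64.2% of probes were well above background on the 12-month arrays and between 73.1% and 77.5% on the 3-month arrays, while negative control spots had a median of 89.5 to 91 and 29.5 to 31 scanner units, respectively. The 8 tested genes were nevertheless well above background on all 6 arrays, and none of their spots was saturated. Islet identity was checked on markers: of 10 beta cell markers 7 had a probe, and these 7 as well as all 8 markers of other endocrine cells were well above background on every array. So were the 7 acinar markers with a probe, and their summed signal was lower in 12-month replicate 2 and 3-month replicate 3 than in the remaining arrays. In bulk tissue of this kind, fewer cells of a type and less RNA per cell cannot be told apart.

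One of the 8 tested zinc genes differed between the ages, namely *Slc30a8*, which was 13.1-fold higher at 12 months. With limma and Benjamini-Hochberg adjustment over 17941 tested probes, 1 of 8 genes passed an adjusted p of 0.05 as higher at 12 months, where 5.32% of all tested probes did, and 0 of 8 as lower, where 3.05% of all tested probes did. Before adjustment 1 of 8 was lower at a limma p under 0.05, as were at least 11.9% of all tested probes. At the study's own threshold, an unadjusted p below 0.05 together with a difference of more than 2-fold, 1 gene was higher (10.1% of all tested probes) and 1, *Mt3*, was lower (11.9% of all tested probes). The ages did not overlap for 2 of the 8 genes, again *Slc30a8* and *Mt3*, a smaller share than the 39.1% found over all tested probes. Of the 8 differences 4 were positive and 4 negative, with a median of -0.05 log2 units, beside a median of -0.17 over all tested probes.

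**Figure D1:**
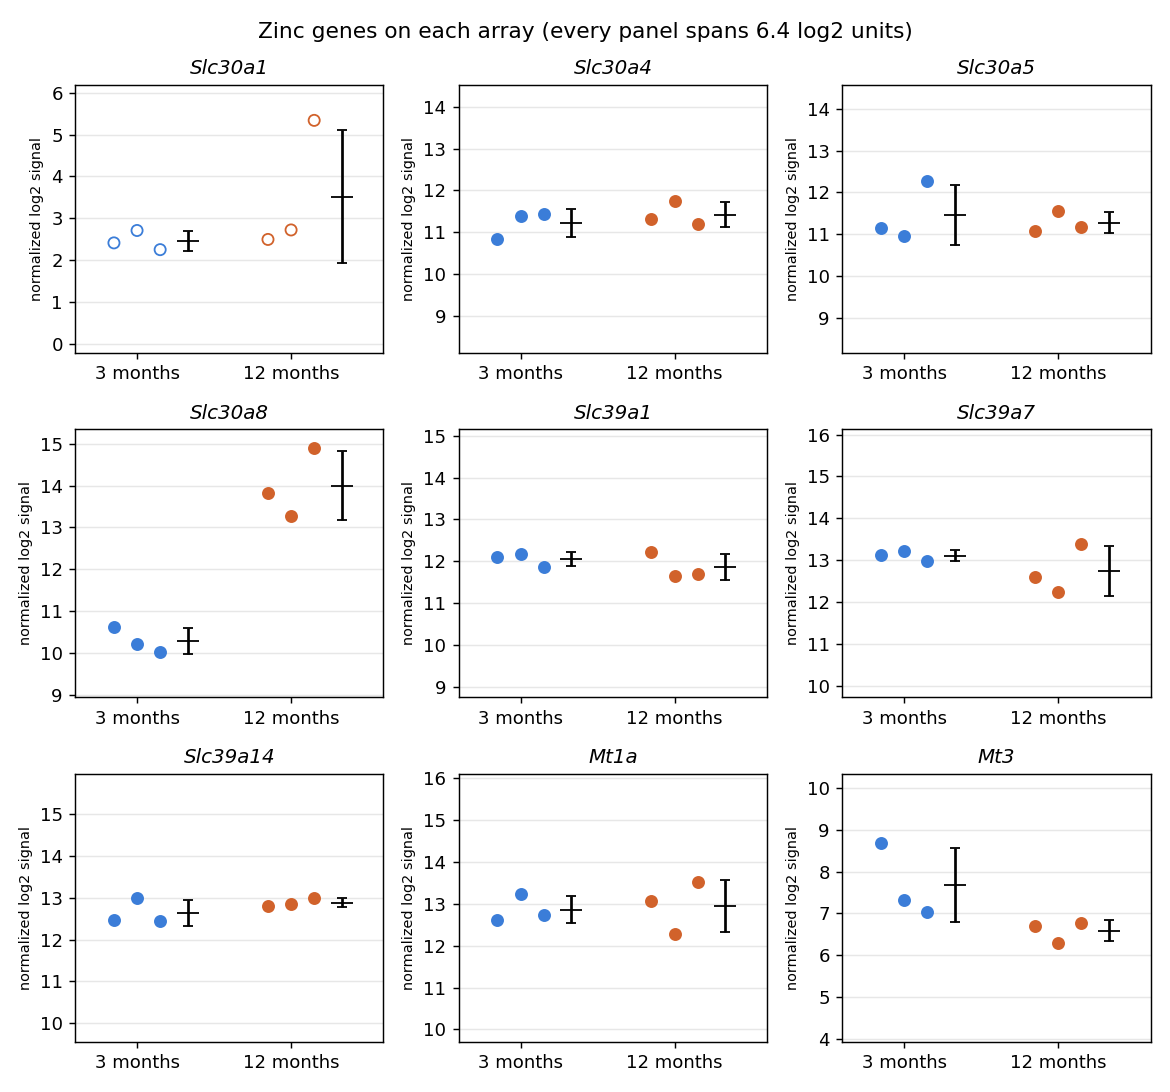
Normalized log2 signal (y axis) of each zinc gene with a probe on the 3-month and the 12-month arrays; each point is 1 array, filled where the probe was well above background, and black bars give the mean ± SD of 3 arrays; levels are not comparable between genes. The 12-month arrays of *Slc30a8* lie between 13.28 and 14.90 and its 3-month arrays between 10.02 and 10.63, whereas the points of most other genes overlap between the ages.

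*Slc30a8* encodes ZnT8, the transporter that loads zinc into the insulin granule and a known susceptibility gene for type 2 diabetes. Its normalized log2 signal was 13.83, 13.28 and 14.90 on the 12-month arrays and 10.63, 10.21 and 10.02 on the 3-month arrays. The lowest 12-month array thus lay 2.65 log2 units above the highest 3-month array, and the most distant pair of arrays differed by 4.88. The means were 14.00 ± 0.82 and 10.29 ± 0.31 (SD, n = 3), a difference of 3.71 log2 units (limma SE 0.44, 95% CI 2.67 to 4.76, adjusted p 0.00904) and therefore larger than the spread between arrays. Expressed as a ratio, the interval ran from 6.35-fold to 27.1-fold. An exact permutation test of 3 arrays against 3, two-sided, gave p = 0.1, the smallest value this design allows.

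The separation was visible before any normalization between arrays. The background-subtracted signal of the *Slc30a8* probe was 25323.5, 16993 and 24188 scanner units at 12 months and 432, 1118 and 1171 at 3 months. The dimmest 12-month array was 14.5 times as bright as the brightest 3-month array. This ratio also holds differences in overall brightness between arrays. After normalization the closest pair was 2.65 log2 units apart. With every array shifted to a common 75th percentile in place of quantile normalization the difference was 3.57 log2 units, and with normexp background correction it was 3.67 (limma adjusted p 0.0111 and 0.00701). Of all tested probes 99 had a larger positive difference than *Slc30a8*, and 99.4% had a lower one.

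The replicate spread of *Slc30a8* was wider at 12 months than at 3 months, replicate 3 being the highest. The gene passed the adjusted threshold in each of the 6 fits that left out 1 array, with differences between 3.27 and 4.08 log2 units. It did not pass when only the 4 arrays sharing a name ending were used (3.44 log2 units, limma adjusted p 0.091). That choice left out 12-month replicate 3 and 3-month replicate 1. The gene did not pass under the methods' t-test either, for which the adjusted p was 0.0572. It also did not pass with a replicate block over 2 or 3 pairs (limma adjusted p 0.198 and 0.0661) or under the methods' paired t-test (adjusted p 0.267). Without the array of each age that was lowest in acinar markers, a choice made after seeing the data, the difference was 3.94 log2 units (limma adjusted p 0.045).

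The summed signal of the 7 beta cell markers was 1045740 to 1171300 scanner units at 12 months and 829746 to 974139 at 3 months after normalization, a ratio of means of 1.21. Of the 7 markers 5 had a positive and 2 a negative difference, with a median of 0.10 log2 units, and 1 passed the adjusted threshold, namely the glucose transporter gene *Slc2a2*, singled out after its values were seen. *Slc2a2* was higher at 12 months by 4.11 log2 units (limma SE 0.35, adjusted p 0.00369), beside 3.71 for *Slc30a8*. The 8 markers of other endocrine cells summed to 912954 to 1009360 at 12 months and 721798 to 791995 at 3 months (ratio of means 1.25), with 7 positive differences, of which that of *Hhex*, a transcription factor of delta cells, passed. The 4 measured markers of stellate and mesenchymal cells also summed higher at 12 months (23994 to 62712 scanner units) than at 3 months (9302 to 16244), with 4 of 4 differences positive. The 4 endothelial markers summed lower at 12 months (28942 to 49121 against 52346 to 67537), with 1 difference positive (*Pecam1*, 1.23 log2 units) and 3 negative, and none of these 8 genes passed the adjusted threshold. The sums of the beta cell and other endocrine markers rest mostly on their brightest probes. There quantile normalization gave the arrays a few shared values. *Ins1* read 18.72, 18.72 and 18.86 log2 units at 12 months and 18.86, 18.43 and 18.72 at 3 months. These sums therefore cannot show whether the share of a cell type changed. The part of all these markers in the *Slc30a8* difference was not tested.

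**Figure D2:**
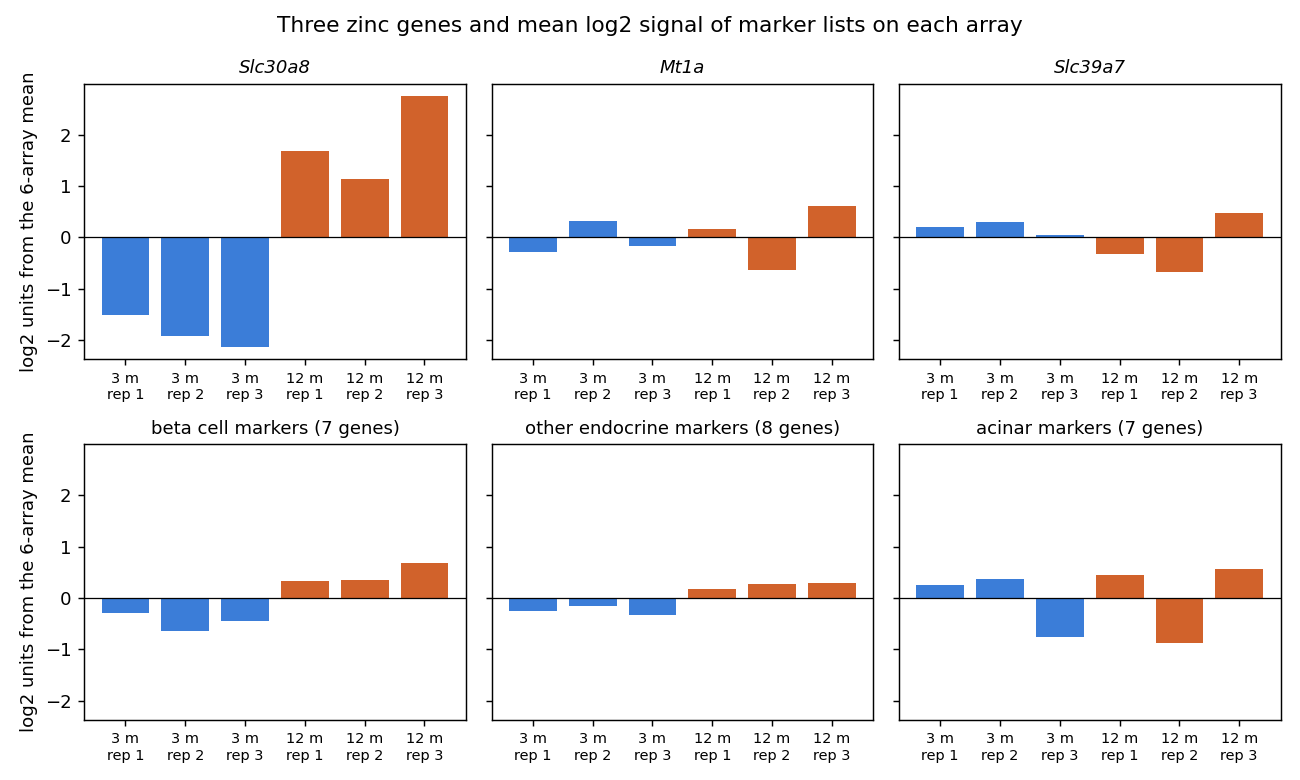
Log2 units from the 6-array mean (y axis) on each array (x axis), blue for 3 months and orange for 12 months, for *Slc30a8*, *Mt1a* and *Slc39a7* and for the mean log2 signal of beta cell, other endocrine and acinar markers. *Slc30a8* changes sign between the ages. The means of the beta cell and of the other endocrine markers do so too, over a narrower range. The acinar markers are lowest in 12-month replicate 2 and 3-month replicate 3.

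**Figure D3:**
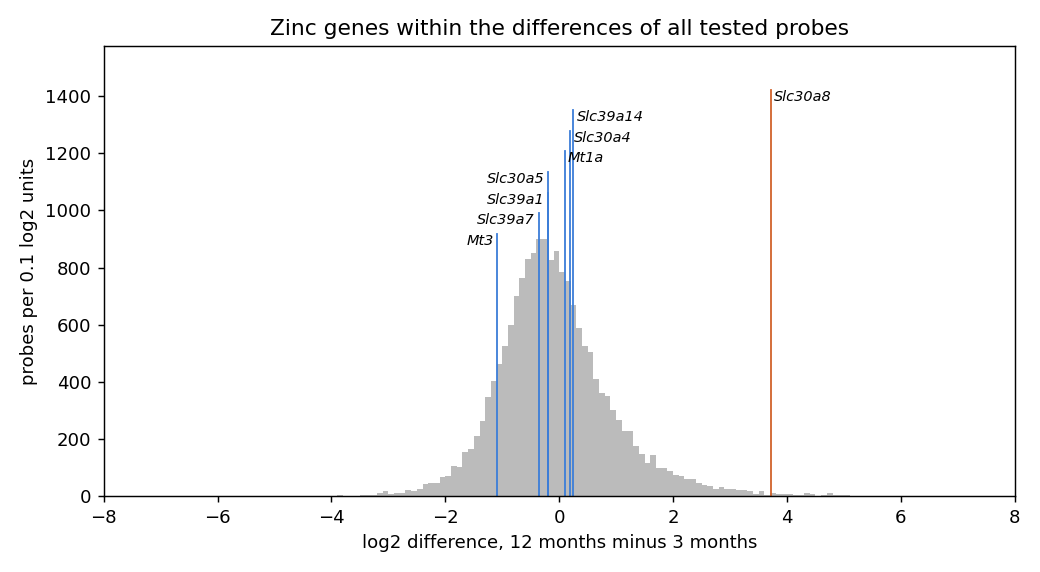
Number of tested probes (y axis) per 0.1 log2 units of difference, 12 months minus 3 months (x axis), with the difference of each tested zinc gene drawn as a vertical line whose height has no meaning. *Slc30a8* at 3.71 lies in the upper tail, with 99 probes beyond it, while the other zinc genes lie between -1.09 and 0.24.

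The other ZnT genes of the group that were tested, *Slc30a4* and *Slc30a5*, did not pass. *Slc30a4* (ZnT4), which serves endosomal and secretory vesicles, read 11.31, 11.75 and 11.20 log2 units on the 12-month arrays and 10.84, 11.39 and 11.44 on the 3-month arrays. The ages overlapped, and the difference was 0.20 (limma SE 0.28, 95% CI -0.48 to 0.87, adjusted p 0.647). *Slc30a5* (ZnT5), a transporter of the Golgi and the early secretory pathway, read 11.09, 11.57 and 11.17 at 12 months and 11.16, 10.95 and 12.28 at 3 months. Replicate 3 stood highest among its 3-month arrays, and the difference was -0.19 (limma SE 0.39, 95% CI -1.13 to 0.75, adjusted p 0.756). Without that array the difference was 0.22, so that no direction can be given for *Slc30a5*.

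*Slc30a1* (ZnT1) encodes the exporter of the plasma membrane and is a known target of MTF-1. Its probe was not well above background on any of the 6 arrays, so it was not tested and no fold is given. The normalized signal was 2.49, 2.72 and 5.34 log2 units at 12 months and 2.41, 2.71 and 2.25 at 3 months, with 12-month replicate 3 apart from the other five arrays.

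Signals of the 3 ZIP importers of the group overlapped between the ages. *Slc39a1* (ZIP1), an importer of the plasma membrane, read 12.22, 11.65 and 11.70 log2 units at 12 months and 12.09, 12.18 and 11.87 at 3 months. Its difference was -0.19 (limma SE 0.26, 95% CI -0.81 to 0.42, adjusted p 0.624). *Slc39a7* (ZIP7), which releases zinc from the endoplasmic reticulum, read 12.60, 12.24 and 13.39 at 12 months and 13.12, 13.22 and 12.97 at 3 months. The 12-month arrays spread both above and below the narrow 3-month range, and the difference was -0.36 (limma SE 0.34, 95% CI -1.17 to 0.44, adjusted p 0.474).

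*Slc39a14* (ZIP14), which carries zinc, iron and manganese, read 12.80, 12.85 and 13.00 log2 units at 12 months and 12.46, 13.00 and 12.45 at 3 months. Here the 12-month arrays were close together, and 3-month replicate 2 reached the same level. The difference was 0.24 (limma SE 0.25, 95% CI -0.36 to 0.85, adjusted p 0.522), and it was -0.02 with the 75th percentile shift. The upper bounds of the 95% intervals, as ratios of 12 months to 3 months, were 1.80 for *Slc39a14*, 1.36 for *Slc39a7* and 1.34 for *Slc39a1*.

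**Figure D4:**
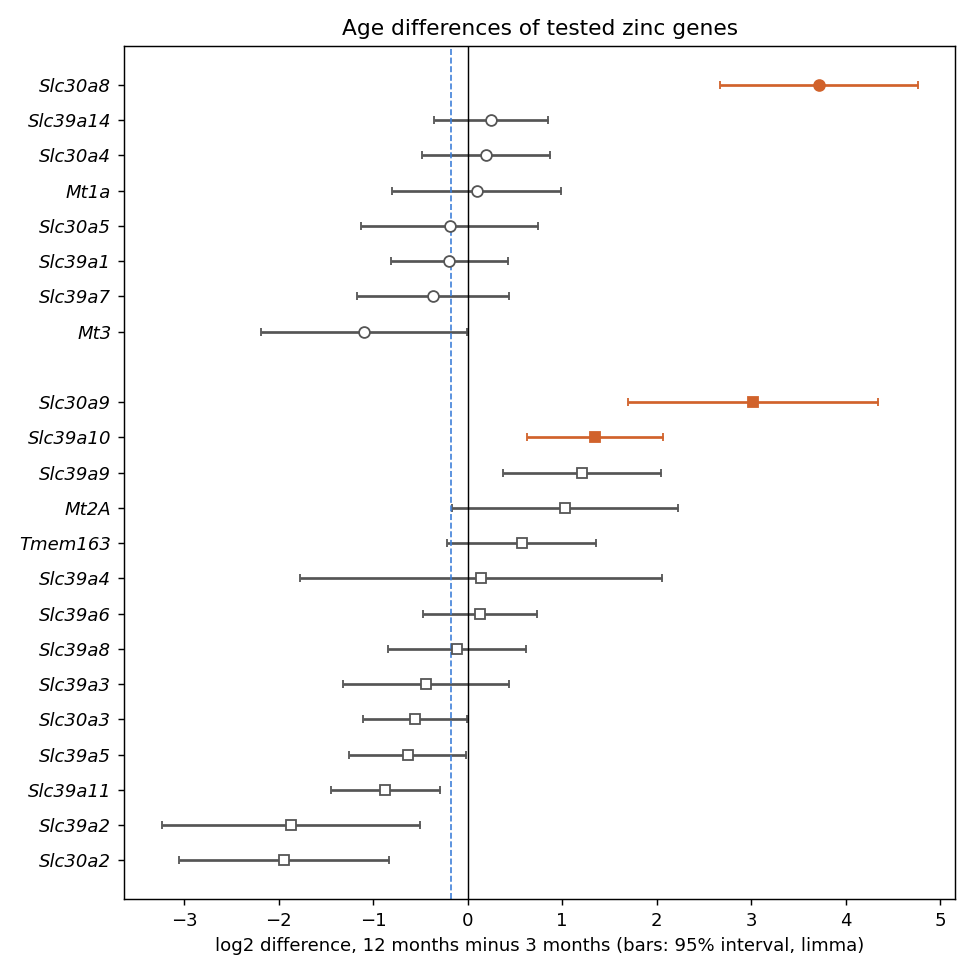
Difference in log2 signal, 12 months minus 3 months (x axis), for the 8 tested genes of the group (circles) and the 14 further zinc genes tested (squares), with bars for the 95% confidence interval of limma, filled orange symbols for an adjusted p under 0.05 and a dashed line at the median of all tested probes (-0.17). The interval of *Slc30a8* runs from 2.67 to 4.76 and that of *Mt3* from -2.18 to just under 0, while those of the other 6 genes of the group include 0.

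Neither metallothionein passed the adjusted threshold. *Mt1a*, now named *Mt1*, is the broadly expressed, metal-inducible form, and it read 13.07, 12.28 and 13.52 log2 units at 12 months and 12.61, 13.23 and 12.74 at 3 months. The ages overlapped, with a difference of 0.10 (limma SE 0.37, 95% CI -0.80 to 0.99, adjusted p 0.875). Its sign turned under 5 alternatives, including the 75th percentile shift (-0.19), so no direction can be given. *Mt1a*, *Mt3*, *Slc30a8*, *Slc39a1* and *Slc39a7* had their lowest 12-month value in replicate 2, the 12-month array lowest in acinar markers. All of these but *Mt1a* were also lowest at 3 months in replicate 3, the 3-month array lowest in those markers. *Slc30a4* and *Slc30a5* went the other way, being highest in 12-month replicate 2 and in 3-month replicate 3. *Slc39a14* was lowest in 12-month replicate 1 and in 3-month replicate 3. The part of acinar cells in these values was not tested. The genome also holds an *Mt1* pseudogene and the related *Mt2A*, and cross-hybridisation of the probe could not be checked because its sequence was not used here.

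*Mt3* encodes a metallothionein best known from the brain. Its probe read 6.69, 6.30 and 6.77 log2 units at 12 months and 8.69, 7.32 and 7.03 at 3 months. All 3-month arrays lay above all 12-month arrays, the closest pair being 0.26 apart, and 3-month replicate 1 was the highest. The means were 6.59 ± 0.25 and 7.68 ± 0.89 (SD, n = 3), so that the signal was 2.13-fold lower at 12 months, a difference of -1.09 log2 units (limma SE 0.46, unadjusted p 0.0491, adjusted p 0.152). In an exact permutation test the two-sided p was 0.1, the smallest possible.

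The separation of *Mt3* depended on the normalization, and its size on a single array. Before normalization between arrays its signals overlapped, with 193.6, 110.4 and 104.5 scanner units at 12 months and 129.6, 139.4 and 142.8 at 3 months. That scale also holds differences in overall brightness between arrays. Without 3-month replicate 1 the difference was -0.59 log2 units (limma unadjusted p 0.0864). It stayed negative under all 19 alternatives, between -1.51 and -0.59 log2 units, and passed the study's threshold under 5 of them. Markers of nerve and Schwann cells also had higher summed signal at 3 months, with 3784 to 8287 scanner units against 1745 to 2682 at 12 months. Of these 7 markers 6 were tested, all 6 had a negative difference, 2 (*Prph* and, without a value on 3-month replicate 1, *Sox10*, both named after their values were seen) passed the adjusted threshold, and 1 was not above background on any array; their part in the *Mt3* difference was not tested.

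The remaining genes of zinc handling give the background for this group. Of 22 further transporters, metallothioneins and regulators 18 had a probe and 14 were tested. At the adjusted threshold 2 were higher at 12 months and 0 lower, beside 5.32% and 3.05% of all tested probes. By the study's criterion 3 were higher and 2 lower, beside 10.1% and 11.9% of all tested probes. At an unadjusted limma p under 0.05 alone 5 were lower, as were at least 11.9% of all tested probes. Positive and negative differences were equally frequent, 7 of each, with a median of 0.01 log2 units, and the ages did not overlap for 7 of the 14 genes, beside 39.1% of all tested probes. *Slc30a10*, *Slc39a12* and *Mt4* were not well above background on any array. *Mtf1*, the gene of the metal-sensing factor itself, was above background on 2 of the 6 arrays and was not tested.

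*Slc30a9*, whose product ZnT9 is a mitochondrial zinc exporter, had the widest difference of these 14 genes. It read 10.42, 9.99 and 11.19 log2 units at 12 months and 8.17, 7.997 and 6.37 at 3 months. The ages were 1.82 log2 units apart at their closest, and the gene was 8.12-fold higher at 12 months (difference 3.02, limma SE 0.56, adjusted p 0.0269). The call was lost without 12-month replicate 1, without 12-month replicate 3 and without 3-month replicate 1, with limma adjusted p-values of 0.0933, 0.0831 and 0.0642.

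*Slc39a10* (ZIP10), an importer of the plasma membrane, read 10.57, 10.85 and 10.20 log2 units at 12 months and 9.23, 9.55 and 8.80 at 3 months. The groups were separate and the gene was 2.55-fold higher at 12 months (difference 1.35, limma SE 0.30, adjusted p 0.0443). This call was lost in each fit that left out 1 array, with differences from 1.15 to 1.53. Without the array of each age lowest in acinar markers the differences were 2.72 for *Slc30a9* and 1.00 for *Slc39a10* (limma adjusted p 0.0524 and 0.12).

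In the opposite direction *Slc30a2* (ZnT2), a vesicular transporter of secretory epithelia, read 9.03, 9.79 and 8.41 log2 units at 12 months and 11.76, 10.55 and 10.74 at 3 months. The difference of -1.94 (limma SE 0.47) missed the adjusted threshold at 0.0515 and passed it under 5 of 19 alternatives, and a second probe of the gene gave -2.09 with an adjusted p of 0.057. Acinar markers overlapped between the ages, with sums of 1174640 to 2122670 scanner units at 12 months and 1331630 to 1960940 at 3 months, and none of the 7 passed. The part of acinar cells in the *Slc30a2* difference was not tested. *Slc39a2* (ZIP2) exceeded background clearly on all 3 arrays at 3 months and on 0 of 3 at 12 months. Its measured difference was -1.87 log2 units (limma adjusted p 0.0839), and the bound set by background allows no fold.

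**Figure D5:**
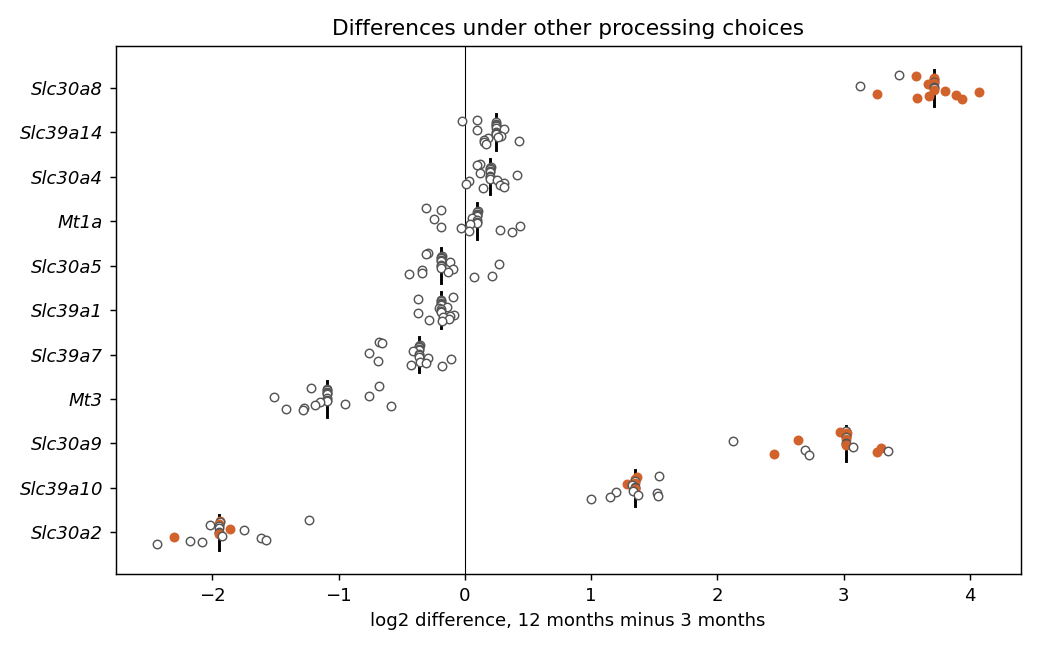
Difference in log2 signal, 12 months minus 3 months (x axis), of the 8 tested genes of the group and of *Slc30a9*, *Slc39a10* and *Slc30a2*; the black tick is the value reported, each point is 1 of up to 19 alternatives, and filled points have an adjusted p under 0.05. *Slc30a8* stayed between 3.13 and 4.08 in all of them, *Mt3* stayed below 0, and points of *Mt1a*, *Slc30a5* and *Slc39a14* lie on both sides of 0.

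Genes with a profile like that of *Slc30a8* were sought among 9089 genes that were well above background on all 6 arrays, after centring each gene on its own mean. The 5 nearest were *Isl1*, a transcription factor of islet cells, *Eif2s1*, a subunit of a translation initiation factor, *Clca5*, of the family of chloride channel regulators, *Daam1*, a regulator of the actin cytoskeleton, and *Ucp2*, a mitochondrial carrier. Their root mean square distances from *Slc30a8* over the 6 arrays were 0.32, 0.36, 0.37, 0.37 and 0.41 log2 units, and their differences between the ages 3.25, 3.47, 3.10, 3.59 and 3.27 log2 units. Differences near that of *Slc30a8* follow from the way these genes were chosen. Their probes were dim at 3 months, with means of 5.17, 6.32, 4.61, 4.32 and 4.84 log2 units. The 6 arrays share scans and probe chemistry, and likeness over so few arrays is a description.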

How the data were processed

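Islet RNA of male Wistar rats was measured on 1-colour arrays. The deposited scanner files hold background-subtracted spot intensity from Agilent Feature Extraction 11.0.1.1, per the file headers, with no scaling across arrays. A deposited table of log2 values, which the authors made by quantile normalization, covers 12145 probes and served as an alternative. The log2 intensity was averaged over the spots of each of 24684 probes, leaving out outlier spots, and quantile normalized; 17944 probes well above background on at least 3 of 6 arrays were kept, and 17941 could be fitted. Ages were compared with limma 3.58.1 in R 4.3.3 (two-sided, no block, Benjamini-Hochberg over the probes fitted). For a gene with more than 1 probe the brightest was used. Genes were named by matching RefSeq transcripts to GRCr8. The genes, marker lists and tests were chosen with earlier results of these data known. Named were all 10 zinc genes, of the further zinc genes those called plus the largest differences up to 4, and the 5 profiles nearest to *Slc30a8*. Where a probe was above background at 1 age, the fold was bounded by the dimmest signal above background. Alternatives covered normalization, background correction, the authors' table, filters, variance model, pairing, t-tests, array subsets and probe choice. The fit was tested on simulated data. Arrays have no read depth, so their number limits precision. The numbers 1 and 2 occur in the labels of both ages; the unnumbered 12-month array is called replicate 3.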

Additional observations from a re-analysis of the deposited data

How the results depend on the processing

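*Slc30a8* was higher at 12 months under all 19 alternatives, by 3.13 to 4.08 log2 units; it passed the adjusted threshold under 14 and the study's threshold under 19. The count of called zinc genes was 1 in every fit without 1 array (1 to 1), and 0 with the 4 arrays sharing a name ending, under the methods' t-test and under the 3 fits with a replicate block. Over all tested probes 0 passed with the 4 arrays and 435 under the t-test. With the block 0 passed over 2 pairs and 97 over 3 pairs, and 1 under the paired t-test. At the study's threshold the 2 genes became 1 with the 4 arrays, the 75th percentile shift, normexp, no filter, an intensity trend with robust variances, the methods' t-test, the block over 3 pairs, the paired t-test and, added after seeing the data, without the arrays lowest in acinar markers; without 1 array the count was 1 to 2. Of the further zinc genes 2 were called. The count was 3 with the 75th percentile shift, normexp, the filter on all 6 arrays and the intensity trend, where *Slc30a2* was called as lower (limma adjusted p 0.047, 0.0394, 0.0384 and 0.0323). It was 1 with the authors' table, which had no value for *Slc39a10* and where *Slc30a9* still passed (limma adjusted p 0.0278). It was 0 with the 4 arrays, the methods' t-test, the replicate blocks and without the arrays lowest in acinar markers. Without 1 array it was 0 to 4, 4 being reached without 12-month replicate 2. That fit called 2167 of all tested probes, and the other fits without 1 array called 208 to 1048. Without the arrays lowest in acinar markers 287 of all tested probes were called.

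Small differences changed sign. *Mt1a* was -0.31 with the 4 arrays, -0.19 with the 75th percentile shift and -0.25 with the block over 2 pairs, and ranged from -0.19 to 0.43 without 1 array. *Slc30a5* was 0.27 with the block over 2 pairs, 0.073 without the arrays lowest in acinar markers and -0.44 to 0.22 without 1 array. *Slc39a14* was -0.023 with the 75th percentile shift, which lowered the median of all probes from -0.17 to -0.40. The causes were not tested.

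Same-numbered arrays did not deviate together. The correlations of deviations from the group means were -0.01 and -0.31 for the numbered pairs and -0.26 for the pair formed by elimination. With the replicate block *Slc30a8* differed by 3.13 over 2 pairs and 3.71 over 3 pairs (limma adjusted p 0.198 and 0.0661), and the paired t-test of the methods gave an adjusted p of 0.267. Each measured gene of the group had 1 probe, and averaging the 2 probes of *Slc30a2* gave -2.02 in place of -1.94. With 3 arrays per age, 1 scan per age and several further zinc genes near background, small differences could not be resolved.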
